A study of Caenorhabditis elegans with 2 samples.

Results

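The cuticle collagen genes of the worm were chosen by symbol, as protein-coding genes named col, rol, sqt or bli with a number, together with 10 dpy genes and lon-3. The rule picked 180 of the 19973 nuclear protein-coding genes, of which 156 were col genes, 6 bli, 4 rol and 3 sqt. Among them are 4 genes not known as collagens: rol-3 (a receptor tyrosine kinase), bli-3 (a dual oxidase that cross-links cuticle proteins), bli-4 (a proprotein convertase) and bli-5 (a protease inhibitor), which leaves 176. Chromosome IV held 45 of the genes, V 34, II 33, X 30, I 24 and III 14.

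The nematode cuticle is an extracellular coat that the epidermis secretes and rebuilds at each molt. Most of it is collagen, encoded by a large family of short genes, and cross-linked by enzymes after secretion. Mutations in single collagen genes can give dumpy (dpy), roller (rol), squat (sqt), blistered (bli) or long (lon) animals, and most other members are known only by a col number. UNC-62 is the worm relative of Meis and Homothorax, homeodomain proteins that bind DNA together with Pbx-type partners, and is known for roles in embryonic patterning and in the adult intestine. Its peaks in ChIP-seq (chromatin immunoprecipitation with sequencing of the bound DNA) were examined here at these genes.

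The series has 1 group with 2 biological replicates: whole young adults of Caenorhabditis elegans at 4 days, with males and females pooled. The strain, OP600, carries the unc-119 allele ed3 and the transgene wgIs600, in which unc-62 is fused to the tags TY1, EGFP and FLAG beside an unc-119 copy; what drives it is not given in the labels. The antibody label names unc-62 while the experiment text names the EGFP fusion, and there was no second condition to compare. A peak is a stretch of genome where sequenced fragments piled up over the control, and its signal is the strength that the authors' peak caller gave it. The list kept for reproducibility between replicates (irreproducible discovery rate; here the thresholded list) held 815 nuclear peaks with a lowest signal of 31.2. The relaxed lists hold weak peaks and background by design: 18993 nuclear peaks in the list called on pooled reads (from 8.57), 29970 in replicate 1 (from 3.19) and 28060 in replicate 2 (from 4.75). Signal scales are not stated to be shared between lists, and read depth is unknown. In whole worms, binding in a few nuclei and weak binding in many cannot be told apart.

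None of the 180 cuticle collagen genes had a thresholded peak summit in its promoter window, taken as the 1000 bp before and the 200 bp after any annotated start of a protein-coding transcript. Many annotated worm starts are trans-splice sites rather than sites of transcription initiation. Over all 19973 genes 2.43% had one, and over the other 19793 genes 2.46% did. A count of 0 of 180 allows a share of up to 1.67%, and the exact (Clopper-Pearson) 95% interval ends at 2.03%, both for counting error only and with genes treated as independent. With 0 of 180 the count was by necessity 0 in each class. The classes included 6 furrow collagens (dpy-2, dpy-3, dpy-7, dpy-8, dpy-9 and dpy-10, which form the circumferential furrows). The others were 5 other dumpy and long collagens, 7 roller and squat genes, 6 blister genes and 156 col genes. The count over all 180 was also 0 with the 843 strongest peaks of either replicate in place of the thresholded list.

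The single thresholded peak within 5 kb upstream of a member lay upstream of col-164. That is 1 of 180 genes (0.556%, exact 95% interval 0.0141 to 3.06%), against 5.57% over all genes and 5.62% over the other genes. The summit lay 2679 bp upstream of the col-164 start, inside an intron of lsy-2, a zinc-finger gene whose own start was nearer at 785 bp. Its signal was 31.6, rank 820 of 843, with 10.7 in replicate 1 and 21.4 in replicate 2. The peak was therefore among the weakest of the thresholded list. When a peak was given only to the nearest start, no member had a thresholded peak within 5 kb.

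A few thresholded peaks came close to members without being upstream of them, and the 3 nearest were picked out after their values were seen. The one nearest to any member start lay 1820 bp downstream of the start of col-180 (X, 11711378 to 11712280), nearer to the start of C44C10.11, with signal 39.8, 19.5 in replicate 1 and 18.2 in replicate 2. The next lay 1987 bp downstream of the start of col-38, beyond the far end of that gene and nearer to the start of F54C9.3, with signal 45.7, 11.4 in replicate 1 and 35.9 in replicate 2. The third had its summit 2095 bp from the start of col-153. This peak of signal 38.02 overlapped the far end of col-153 (V, 10949811 to 10951821), with its summit in the coding sequence of the neighbour F17C11.4, and had 16.4 and 20.5 in replicates 1 and 2. No thresholded summit lay within the body of any of the 180 members, against 1.18% of the other genes, which are longer. That share lies within the exact 95% interval for 0 of 180, which ends at 2.03%. The distance from a member's first start to the closest thresholded summit had a median of 48489 bp (quartiles 24508 and 115462 bp), and over the other genes it was 51830 bp (20573 and 116346 bp). Thresholded peaks were thus about as far from collagen genes as from other genes on this measure.

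**Figure D1:**
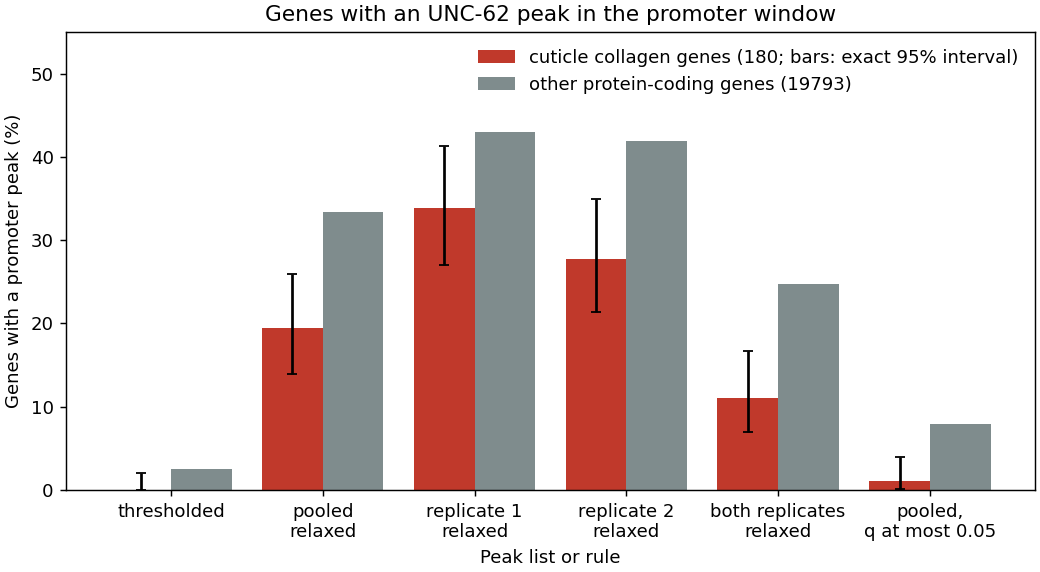
Share of genes (%) with a peak summit in the promoter window, by list or rule, for the 180 cuticle collagen genes (red, with exact 95% intervals that cover counting only) and the 19793 other protein-coding genes (grey). The collagen share is below that of other genes in each list, from 0 against 2.46% in the thresholded list to 33.9% against 43.0% in replicate 1.

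Weak peaks were present at some collagen promoters, in a smaller share than at other genes. In the pooled relaxed list 35 of 180 members had a promoter summit (19.4%, exact 95% interval 13.9 to 25.99%), against 33.2% over all genes. Replicate 1 gave 61 of 180 (33.9%, interval 27.01 to 41.3%) against 42.9% over all genes. Replicate 2 gave 50 of 180 (27.8%, interval 21.4 to 34.9%) against 41.8%. The share was lower than that of other genes in both replicates, and by more in replicate 2. A relaxed promoter peak was found in both replicates for 20 members (11.1%, interval 6.92 to 16.6%) against 24.6% over all genes. At 13 of these 20 the peaks of the replicates overlapped (65%), compared with 76.6% of the other genes with peaks in both. Another 41 members had a promoter peak in replicate 1 alone and 30 in replicate 2 alone. For 84 of 180 members (46.7%) none of the relaxed lists held a promoter summit, as for 38.6% of the other genes. Within 5 kb upstream, 92 members (51.1%, interval 43.6 to 58.6%) had a pooled relaxed peak against 64.6% over all genes.

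The smaller share was seen on each chromosome in the pooled list. It was 12.1% of members against 30.4% of other genes on II, 13.3% against 32.7% on IV, 23.5% against 29.7% on V and 23.3% against 37.7% on X, with 25% against 35.2% on I and 28.6% against 38.7% on III. These rest on 14 to 45 members each. Weighting the other genes to the chromosomes of the members left their share at 33.3%. Collagen genes are short, with a median length of 1230 bp against 2039 bp and at most 2 exons at the median against 5, and 86.7% had 1 annotated start against 73.6% of other genes. A gene with more starts has more window, so the comparison was also made among genes with 1 start: 28 of 156 members (17.9%) had a pooled promoter peak against 27.8% of other genes. Among genes with 1 start and at most 2000 bp it was 23 of 135 (17%) against 25.7%. The gap to the next gene upstream was somewhat shorter for members, with a median of 828 bp against 942 bp. Among genes with at least 1000 bp free of other protein-coding genes upstream, 12 of 80 members (15%) had a pooled promoter peak against 32.8%. These gene sets were added after the values were seen.

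**Figure D2:**
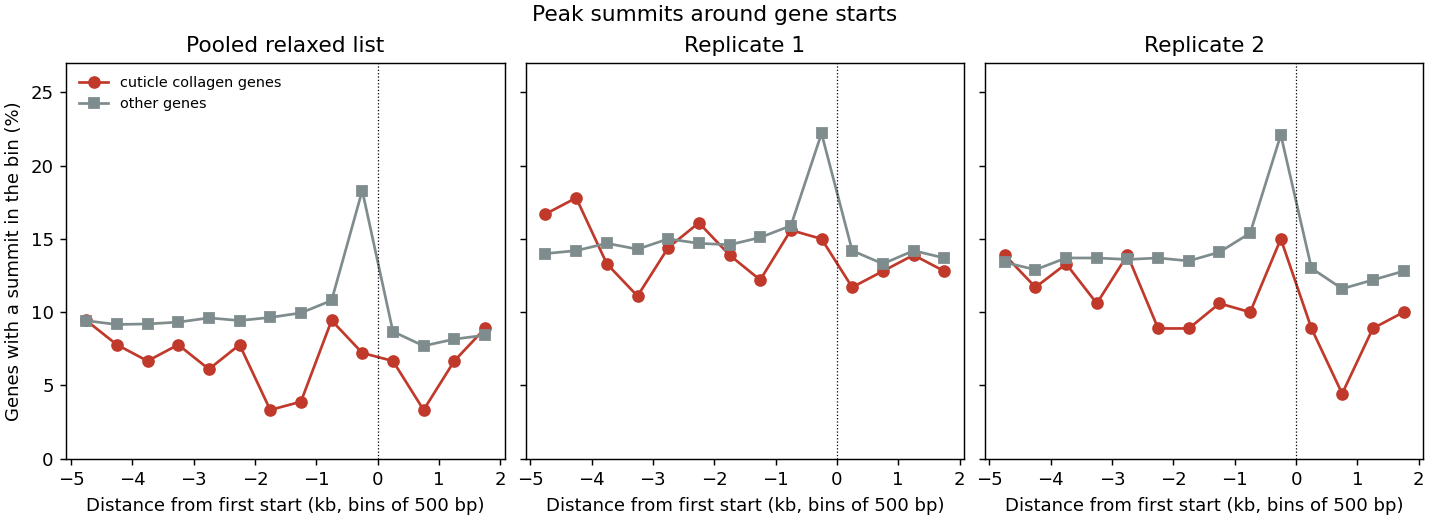
Share of genes (%) with a relaxed peak summit in bins of 500 bp from 5 kb upstream to 2 kb downstream of the first annotated start, in the pooled list and each replicate, for cuticle collagen genes (red) and other genes (grey). Other genes rise to 18.3, 22.2 and 22.1% in the bin just upstream of the start, where collagen genes are at 7.22, 15 and 15%.

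Around the start, the bin of the 500 bp just upstream was the highest of all bins for other genes in each list. In the pooled list 18.3% of other genes had a summit there, compared with 9.20 to 10.8% in their bins between 500 bp and 4 kb upstream. Collagen genes had 7.22% there (13 genes), within the range of 3.33 to 9.44% of their own other bins. In replicate 1 the collagen share in this bin was 15% (27 genes), within the range of its other bins, while other genes reached 22.2%. In replicate 2 it was also 15% (27 genes), the highest of the collagen bins in that list, and other genes reached 22.1%. So the rise seen just upstream of other genes was not seen at collagen genes in the pooled list or in replicate 1, and ended at a lower share in replicate 2. Collagen genes were as far below other genes in replicate 2 in the bin from 500 to 999 bp downstream, with 4.44% against 11.6%, and had 3.33% against 7.70% there in the pooled list and 12.8% against 13.3% in replicate 1. Inside gene bodies, 28 of 180 members (15.6%) had a pooled summit against 32% of the longer other genes.

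The peaks that were present at members were weak. Over the 35 members with a pooled promoter peak the strongest peak per gene had a median signal of 10.8 (range 8.70 to 19.6), against 12.5 over the 6605 other genes with one, of which 20.3% exceeded the strongest member. In replicate 1 the medians were 4.47 for 61 members (highest 10.2) and 5.28 for other genes. In replicate 2 they were 6.24 for 50 members (highest 12.5) and 7.77. Above a pooled signal of 15 there were 2 members (1.11%) and 11.6% of other genes, and above 20 there were 0 members and 6.48%. The same holds with the q-value in the pooled list: 2 members (1.11%, exact 95% interval 0.135 to 3.96%) had a promoter peak with q of at most 0.05, against 7.88% over all genes.

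**Figure D3:**
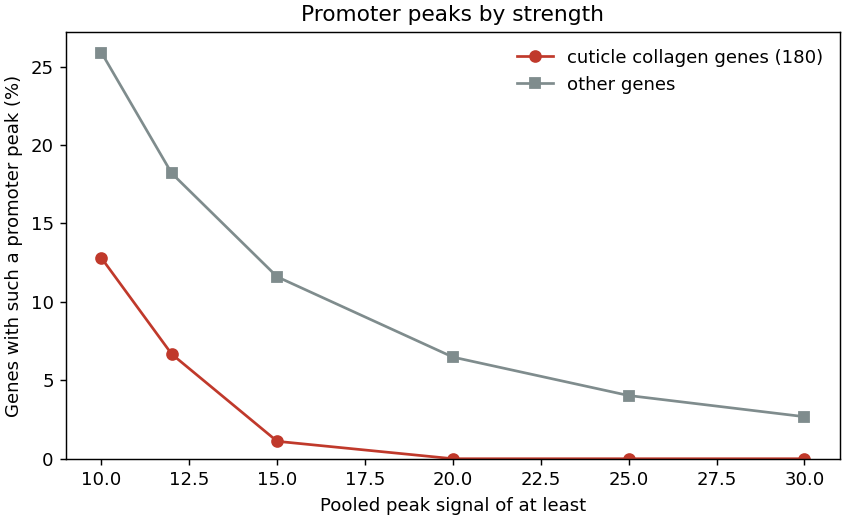
Share of genes (%) with a pooled promoter peak of at least the signal on the x axis, for 180 cuticle collagen genes (red) and 19793 other genes (grey). At 10 the shares are 12.8 and 25.9%, and from 20 upward no collagen gene is left.

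The genomic sequence at the 5 strongest pooled promoter peaks of members is shown to let the weak peaks be compared with the thresholded one. Each run is 101 bases of WBcel235 (ce11) centred on the summit and read on the strand of the gene, 5′ to 3′. Capitals mark any match, on either strand, to the words searched for. The word TGACAG is the core bound by Meis-type factors. The word TGATAA is of the GATA type. The word TGATNNAT is of the type bound by Pbx with a Hox partner, and the words can overlap.
col-164, thresholded peak, chrX:2090740-2090840, plus strand: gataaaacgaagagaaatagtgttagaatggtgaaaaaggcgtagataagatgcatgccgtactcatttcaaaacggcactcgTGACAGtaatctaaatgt
dpy-17, pooled peak, chrIII:5107019-5107119, plus strand: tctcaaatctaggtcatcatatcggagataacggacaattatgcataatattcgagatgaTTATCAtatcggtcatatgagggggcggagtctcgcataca
col-38, pooled peak, chrII:8569487-8569587, minus strand: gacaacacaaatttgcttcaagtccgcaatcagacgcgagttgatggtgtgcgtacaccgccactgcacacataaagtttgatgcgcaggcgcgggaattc
col-165, pooled peak, chrX:4353517-4353617, plus strand: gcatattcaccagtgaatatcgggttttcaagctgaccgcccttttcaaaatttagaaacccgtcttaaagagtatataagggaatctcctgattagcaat
col-185, pooled peak, chrX:13511896-13511996, minus strand: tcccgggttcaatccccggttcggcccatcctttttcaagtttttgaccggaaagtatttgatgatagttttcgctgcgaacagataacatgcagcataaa
dpy-3, pooled peak, chrX:2146346-2146446, minus strand: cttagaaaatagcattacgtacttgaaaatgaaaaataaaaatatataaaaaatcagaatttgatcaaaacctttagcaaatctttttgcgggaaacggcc
Over the 10 strongest pooled promoter peaks of members, TGACAG was in 0, TGATNNAT in 0 and TGATAA in 3, those of dpy-17, col-62 and bli-6. The thresholded peak upstream of col-164 held TGACAG.

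The words were counted in the same 101 bp around all summits. TGACAG was in 1 of the 38 pooled peaks in member promoters (2.63%), in 5.70% of the 6943 pooled peaks in all promoters and in 20% of the 425 thresholded promoter peaks. TGATAA was in 4 of 38 (10.5%), 15.9% and 28%, and TGATNNAT was in 3 of 38 (7.89%), 8.70% and 8.94%. In the promoter windows themselves, the word TGACAG was more frequent at collagen genes than at others: 83 of 180 windows (46.1%) held it, against 34.4% of all 19973 windows of the same length, counted from the first start. In the 500 bp upstream it was 39 of 180 (21.7%) against 15.1%. TGATAA was in 141 of 180 windows (78.3%) against 72%, and TGATNNAT in 118 (65.6%) against 64.0%. In the 500 bp upstream TGATAA was in 102 of 180 (56.7%) against 43.8%, so a higher share was not particular to TGACAG. TGATNNAT was there in 61 (33.9%) against 35.4%. Guanine and cytosine made up a median of 35.7% of the bases in member windows and 35% in all windows. In the 500 bp upstream the medians were 35.6% and 33.7%. Of the 83 members with TGACAG in the window 14 (16.9%) had a pooled promoter peak, and of the 97 without it 21 (21.6%) did. Among other genes it was 34.4% with the word and 32.8% without, and for thresholded peaks 3.30% and 2.01%. The word was thus common at collagen genes, and peaks were no more frequent at the members that held it. A match is a description of the letters and not a binding site.

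Both phenotype genes that held TGACAG in the 1000 bp upstream and had no promoter peak in any list are shown with the word in capitals, on the strand of the gene, where it reads as its reverse complement. It starts 841 bp upstream of bli-1, a collagen of the adult struts, and 926 bp upstream of dpy-9, a furrow collagen.
bli-1, chrII:10708102-10708141, plus strand: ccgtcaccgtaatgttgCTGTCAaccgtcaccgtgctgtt
dpy-9, chrIV:260108-260147, minus strand: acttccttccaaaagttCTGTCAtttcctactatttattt

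Of the furrow collagens, dpy-3 alone had a pooled promoter peak. Its signal was 14.2 at 749 bp upstream, with 3.78 in replicate 1 and 10.3 in replicate 2, the first of which is close to the lowest value of its list. The gene dpy-2 had a peak of 5.93 in replicate 2 alone, 38 bp upstream. In replicate 1 alone, dpy-10 had 3.39 and dpy-8 had 4.31, both below the median of 4.71 of that list. The genes dpy-7 and dpy-9 had no promoter peak in any list. Of the 6 furrow collagens 1 (16.7%) had a pooled promoter peak, against 33.2% of all genes. In replicate 1 it was 3 of 6 (50%) against 42.9%, and in replicate 2 it was 2 of 6 (33.3%) against 41.8%. With 6 genes these shares say little. The closest thresholded summit was 24398 bp from the start of dpy-7, whose promoter is widely used to drive epidermal transgenes, and 3508 bp from that of dpy-9.

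Among the other dumpy and long collagens, dpy-17 (III, 5107330 to 5108492) had the strongest but one promoter peak of all members. The pooled signal was 19.4 at 261 bp upstream (rank 2400 of 19023, −log10 q of 1.63), with 6.48 in replicate 1 and 11.1 in replicate 2. The summit was intergenic and the start of dpy-17 was the nearest. Its partner collagen sqt-3 (V, 12352745 to 12354320) had 13.6 at 63 bp downstream of the start, within the 5′ untranslated region, with 6.66 and 8.78 in replicates 1 and 2. In replicate 1, dpy-4 had 4.25 and dpy-13 had 3.83, and neither had a peak in replicate 2 or in the pooled list. The genes dpy-5 and lon-3 had none in any list. Of the 5 other dumpy and long collagens 1 (20%) had a pooled promoter peak, against 33.2% of all genes. In replicate 1 it was 3 of 5 (60%) against 42.9%, and in replicate 2 it was 1 of 5 (20%) against 41.8%. With 5 genes these shares say little.

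Of the 7 roller and squat genes 2 (28.6%) had a pooled promoter peak and 3 (42.9%) one in replicate 1, against 33.2% and 42.9% of all genes, so these shares were near those of all genes. No relaxed list held a promoter summit for rol-1, rol-6, rol-8 or sqt-1, and sqt-2 had one of 5.85 in replicate 1 alone. The closest thresholded summit to the rol-6 start was at 6013 bp. The receptor gene rol-3, not a collagen, had 13.3 in the pooled list at 90 bp upstream. It had 9.59 in replicate 1 with a −log10 q of 3.10, and 6.27 in replicate 2.

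The blister genes had peaks in replicate 2 and none in replicate 1. The collagen gene bli-6 had 10.4 in replicate 2 and 13.05 in the pooled list at 177 bp upstream, in a window shared with hrpf-2. The strut collagen gene bli-2 had 9.61 and 10.1 at 705 bp upstream, in an intron of zyg-1. The processing genes bli-5 and bli-4 had 6.403 and 6.56 in replicate 2, and 11.1 and 8.97 in the pooled list, the first in a window shared with trf-1. The genes bli-1 and bli-3 had no promoter peak in any list. In all, 4 of 6 blister genes (66.7%) had a pooled promoter peak, above the 33.2% of all genes, and 0 of 6 had one in both replicates, against 24.6% of all genes. With 6 genes these shares say little.

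**Figure D4:**
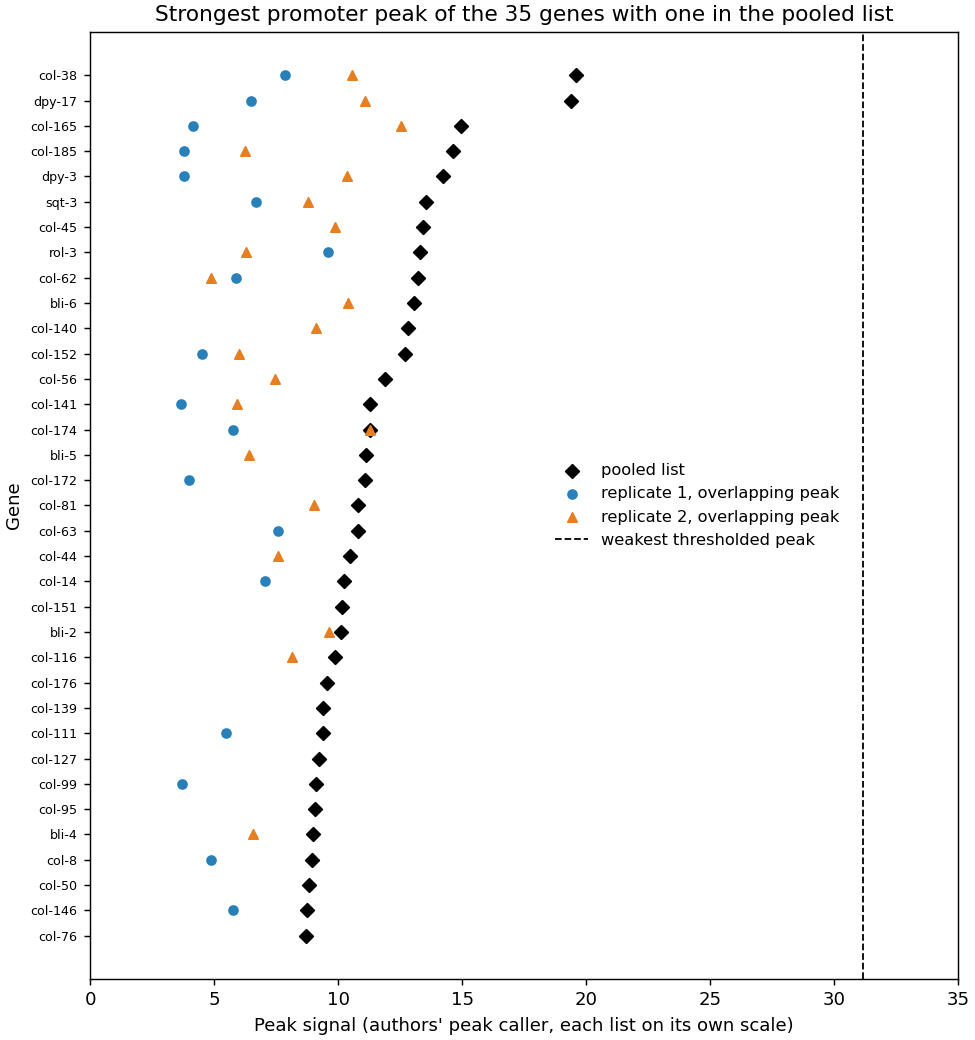
Signal of the strongest pooled promoter peak (diamonds) for the 35 members with one, and of the strongest overlapping peak in replicate 1 (circles) and replicate 2 (triangles), each list on its own scale. All pooled values lie between 8.70 and 19.6, left of the dashed line at 31.2, the weakest thresholded peak.

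Of the 156 numbered col genes 27 (17.3%) had a pooled promoter peak, against 33.2% of all genes. The strongest of all members was at col-38 (II, 8568035 to 8569088), with 19.6 at 449 bp upstream (rank 2350 of 19023, −log10 q of 1.71), 7.87 in replicate 1 and 10.6 in replicate 2. This summit lay nearer to the start of rpl-5, a ribosomal protein gene on the other side, at 390 bp upstream, and within annotated noncoding RNAs. Next was col-165 (X, 4353618 to 4354852), with 14.96 at 51 bp upstream. It had 4.16 in replicate 1 and 12.5 in replicate 2, the highest replicate 2 value of any member. At col-185 the pooled signal was 14.6 at 849 bp upstream, with 3.798 and 6.22 in the replicates, and a transfer RNA gene lay within 200 bp of the summit. A small RNA gene lay that close for 1.70% of all promoter peaks. Peaks at col-45 (13.4, in the 5′ untranslated region) and col-140 (12.8) were overlapped in replicate 2 alone, with 9.86 and 9.09. The col-62 peak (13.2) had 5.86 and 4.85 in replicates 1 and 2, and was nearer to the start of C15A11.7. None of these col genes had a pooled signal near the 31.2 of the weakest thresholded peak.

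Some col genes had their strongest peak in 1 replicate without one at that site in the other. The highest replicate 1 value of any member was at col-2, with 10.2 and a −log10 q of 3.02 at 466 bp upstream. No peak was there in replicate 2 or the pooled list, and the start of the kinetochore gene ndc-80 was nearer, at 220 bp. The col-43 window had 7.998 in replicate 1 alone, nearer to sth-1, and col-63 had 7.58 in replicate 1 and 10.8 in the pooled list. At col-174 the strongest peaks of the replicates lay apart, but each was overlapped by a weaker peak of the other replicate. Replicate 1 had 7.47 at 59 bp downstream, overlapped by a replicate 2 peak of 5.05. Replicate 2 had 11.3 at 884 bp upstream, overlapped by a replicate 1 peak of 5.74, and the pooled signal at this upstream site was 11.3. The adult collagen gene col-19 had 3.87 in replicate 1 alone, and col-7, another adult collagen gene, had 3.40 in replicate 1 alone. Both values are near the lowest of that list. The col-7 summit lay 813 bp upstream, in the coding sequence of C15A11.4, whose start was nearer at 704 bp.

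The pooled promoter peaks of members were less often found again in the replicates. Of the 35 strongest ones, 11 (31.4%) were overlapped by a peak in both replicates, against 52.3% of the 6605 at other genes. Another 7 were overlapped in replicate 1 only and 10 in replicate 2 only, and 7 (20%) in neither, against 3.92% at other genes. The share among other genes with equal signal was not computed. The member's own start was nearest for 30 of 35 (85.7%), as for 83.3% of other genes, and 11 (31.4%) also lay in the window of another gene, against 28.1%. Fewer member summits lay in the first 500 bp upstream (12 of 35, 34.3%, against 57.0%), and more lay downstream of the start (8 of 35, 22.9%, against 12.1%). Of the 38 distinct pooled peaks in member windows 10 (26.3%) had the summit in coding sequence, against 10.8% of all promoter peaks. This was not always the member's own coding sequence, as at col-151, but in part that of a neighbour. The neighbours were dmsr-15, col-9, nhr-7, best-14 and C46A5.4. The pair col-159 and col-160 shared a replicate 2 peak of 9.64 and a weaker one of 5.04, and no other peak in any list was shared by members.

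Collagen genes have close paralogs, so reads that match several places could be lost or split. As a measure of this, 32-base words that occur more than once in the genome were counted. They made up a mean of 3.78% of member promoter windows and 5.84% of those of other genes, and more than 10% of the window for 17 members (9.44%) against 14.3% of other genes. In gene bodies the order was the other way, with means of 13.8% and 6.59%. Promoters of members were no more repeated than those of other genes at this word length, and the bodies were more repeated. The read length is not given in the sources used here. Whether reads were lost or split at members was not tested. Repeated promoters among the members named above were those of col-62 (28.9%), col-45 (20.8%) and rol-1 (45.1%).

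For other genes of cuticle formation the counts stand beside 2.43% of all genes with a thresholded promoter peak and 33.2% with a pooled one. None of the 35 cuticlin genes, which encode other insoluble cuticle proteins, had a thresholded promoter peak, and 9 (25.7%) had a pooled one, led by cutl-8 (17.1), cut-5 (14.3) and cutl-19 (14.2). None of 9 genes of collagen folding and processing had a thresholded one and 3 (33.3%) had a pooled one: pdi-2 (18.5), which encodes a protein disulfide isomerase of the prolyl hydroxylase complex, dpy-18 (9.04), its catalytic subunit, and bli-4. Of 5 cross-linking genes mlt-7, a peroxidase gene, alone had a pooled one (11.4). Of 3 basement membrane collagens (emb-9, let-2 and cle-1) none had a pooled one. In replicate 1, 2 of these 3 (66.7%) had a promoter peak against 42.9% of all genes. In replicate 2 it was also 2 of 3 (66.7%), against 41.8%, and 1 of 3 (33.3%) had one in both replicates, against 24.6%. Among 8 genes of the apical matrix noah-1 (27.4) and lrp-1 (14.2) had a pooled one (25%) and none a thresholded one, and 1 of the 8 (12.5%) had a thresholded peak within 5 kb upstream, against 5.57% of all genes. A pooled promoter peak with q of at most 0.05 was found for 1 of 8 apical matrix genes (12.5%) and 1 of 9 folding genes (11.1%), against 7.88% of all genes. Cuticlin shares were below those of all genes, with 31.4% against 41.8% in replicate 2 and 40% against 42.9% in replicate 1. In both replicates 11.4% of cuticlin genes had a promoter peak against 24.6% of all genes, and 0 of 35 had a pooled one with q of at most 0.05. The collagen share in both replicates was 11.1%, so a low share there was not particular to collagens. The folding, basement membrane and apical matrix lists hold few genes, so their shares say little, and bli-3 and bli-4 are also members.

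Among 15 regulators of molting and epidermal fate 11 (73.3%) had a pooled promoter peak, against 33.2% of all genes. In both replicates 9 (60%) had one, against 24.6%, and 1 (6.67%), lin-28, had a thresholded one, against 2.43%. The peak of lin-28, which encodes a heterochronic RNA-binding protein, had a signal of 35.9 at 66 bp upstream, with 12.3 in replicate 1 and 21.7 in replicate 2. The next strongest were elt-1 (23.4), a GATA factor gene of epidermal fate, with 9.14 and 9.56 in replicates 1 and 2, and myrf-1 (18.2), with 22.0 in replicate 2 and none in replicate 1. These genes had a median of 3 annotated starts and a length of 6343 bp, against 1 start and 1230 bp for the collagen genes, so their windows cover more sequence. The part of this in the difference was not tested.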

How the data were processed

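Peak lists of both replicates of the single group were used as deposited, on the build ce11, and the ce10 versions were not used here. The README files deposited with the samples derive each replicate list from that replicate's alignment with a control, and the other lists from both replicates. Which aligner and peak caller were run is not given in the sources used here. Both value columns are the authors' own, signal and −log10 of q-values, and neither was rescaled. A peak was placed by its summit. Genes, starts and sequence were those of WBcel235 (Ensembl release 115; RefSeq genome). Computation used Python 3.11.15, numpy 2.4.6, pandas 2.3.3, scipy 1.17.1 and matplotlib 3.10.9. Window assignment was checked with 200 planted summits, all recovered.

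Members and lists were chosen with earlier results of these data known, so counts stand beside those of all genes without a test. The labels give separate biological replicates of 1 strain, and intervals cover counting of genes only. Genes were named by a rule: the 10 strongest pooled and 5 strongest per replicate, those within 5 kb upstream of which a thresholded peak lay, all genes named by phenotype, col-19 and col-7, and at most 3 per other list. A few named outside it (col-140, col-153, col-159, col-160, col-180) were picked after their values were seen. Other windows, overlap rules, single replicates, list lengths and gene sets were tried.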

Additional observations from a re-analysis of the deposited data

How the results depend on the processing

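The count of 0 members with a thresholded promoter peak held with windows of 500 bp upstream to 100 bp downstream and 2000 bp upstream to 200 bp downstream, with any overlap, with the nearest start, without rol-3, bli-3, bli-4 and bli-5, with the stronger 421 peaks, and without either replicate. With the 2529 strongest pooled peaks, 3 times as many, the count was 2 (col-38 and dpy-17, 1.11% against 7.22% of other genes). Within 5 kb upstream it was 12 (6.67% against 15.3%). Within 5 kb the count of 1 became 0 with the nearest start or the stronger 421 peaks, and ran from 1 to 2 without a replicate: sqt-3 and col-164 without replicate 1, and col-185 without replicate 2. The 35 members with a pooled promoter peak became 19 in the 500 bp window (10.6% against 23.3%), and 50 to 61 without a replicate, that is, in the list of replicate 2 or 1 alone. The 20 members with peaks in both replicates became 10 in the 500 bp window (5.56% against 14.0%) and 43 in the 2000 bp window (23.9% against 38.7%). In each of these the members' share was below that of other genes. The median pooled signal stayed between 10.8 and 11.1. The alternatives for sets of other genes were chosen after seeing the data. They were computed for pooled promoter peaks only, so the thresholded counts stand beside unmatched genes. No paired analysis was possible because there is 1 group. Depth is unknown, so peaks below the limits of the lists were not detectable here.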
